A study of Mus musculus with 2 samples.

Results

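Solute carrier genes encode membrane transporters that move nutrients, ions, metals and metabolites across cell and organelle membranes. Those counted well enough to be described were taken as the rows whose symbol begins with Slc, a family number, the letter a and a member number, and that held at least 1000 unique molecular identifiers (UMIs, 1 per captured transcript) summed over all barcodes of both libraries. Of 347 such symbols among 32286 features, 135 passed, 19 held no UMI, and 132 were kept after Slc6a2, Slc45a4 and Slc2a1 were left out. Apart from these 3, which were left out by name, the genes were selected on their summed UMIs, without regard to class or group. The sum let genes pass with uneven counts, and 11 of the 132 held under 500 UMIs in 1 of the libraries. Among these were Slc5a12, with 142 UMIs in aKO and 1334 in aWT, and Slc1a5, with 2283 in aKO and 442 in aWT. Just inside the threshold lay Slc10a3 with 1034, Slc25a22 with 1015 and Slc52a3 with 1005 UMIs, and just outside it Slc22a17 with 975, Slc22a14 with 946 and Slc2a10 with 942. The symbol did not always mean a carrier: Slc9a3r1 and Slc9a3r2 encode scaffold proteins that bind a sodium/proton exchanger, Slc4a1ap encodes an adaptor protein, and Slc7a6os is a neighbour of Slc7a6, so 4 of the 132 are no transporters.

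The series is a model of hereditary hemorrhagic telangiectasia type 2, a disorder of arteriovenous malformations, and holds 1 library labelled aKO and 1 labelled aWT. Both came from lungs of C57BL/6J mice aged 10 to 12 weeks, in which the endothelial cre line Ve-cadherin cre turned on the red reporter tdTomato, and reporter-positive cells were sorted after digestion with Dispase and DNase. The labels name neither the allele behind aKO nor the number or sex of the animals. The assay was single-cell RNA sequencing of transcript 3' ends.

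The aKO library held 11045 barcodes with 75950364 UMIs and the aWT library 15996 barcodes with 72270260 UMIs; 48 barcode sequences occurred in both. After filtering, 10380 aKO and 14959 aWT cells were set into classes by their share of marker UMIs. These were 4437 aKO and 8704 aWT general capillary cells, 1028 and 2282 aerocytes (the thin capillary cells of gas exchange), 583 and 1116 arterial, 947 and 1434 venous, and 1585 and 498 lymphatic cells. Endothelial cells that met no class gate made up 14.4% of aKO and 1.78% of aWT cells and are outside the comparisons by class. The classes were not identical in make-up: general capillary markers took 0.0796% of UMIs in aKO and 0.387% in aWT arterial cells, and 0.461% in aKO and 0.938% in aWT general capillary cells. The venous class had the fewest of its own markers among its 10 genes with the largest fold over the other classes, 1 in aKO and 2 in aWT. Acvrl1, the gene of the disease receptor ALK1, stood at 619 CPM (UMIs scaled to the summed UMIs of the class) in aKO and 1104 CPM in aWT general capillary cells, and Id1, which that receptor induces, at 43.6 and 1239 CPM. With 1 library per group no difference between aKO and aWT was tested, intervals are 95% Poisson intervals for counting error only, and cells are not replicates.

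In blood vessels, solute carriers supply the endothelial cell itself and pass solutes between blood and tissue. Several amino acid carriers work only as pairs of a light and a heavy chain, and monocarboxylate carriers depend on the chaperone basigin. Mitochondrial carriers of the Slc25 family pass phosphate, nucleotides and metabolites across the inner membrane, while others serve lysosomes, the Golgi and vesicles.

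Upstream sequence is shown for the mitochondrial carriers Slc25a3 and Slc25a5, which were higher in aKO, and for Slc9a9, Slc16a12 and Slc45a3, which were highest in lymphatic cells. The lymphatic log2 ratios of aKO over aWT were -0.66 for Slc9a9, 0.30 for Slc16a12 and 0.16 for Slc45a3, so these did not go one way. Of the 132 genes, 102 had at least 1 window in the RefSeq promoter table of build GRCm38.p6, with 141 windows in all. Each line runs 5′ to 3′ from 250 bases before the RefSeq start site and ends before the first exon base in the GENCODE annotation. Capitals mark matches to the 3 motifs searched on both strands, the C/EBP-ATF response element TGATGNAA, the NRF1 core GCGCANGC and the GC-rich SMAD element GGCGCC, of which no matches overlapped in these lines. For Slc45a3 the first of 2 windows is given.
Slc25a3 (chr10:91124060-91124217, minus strand): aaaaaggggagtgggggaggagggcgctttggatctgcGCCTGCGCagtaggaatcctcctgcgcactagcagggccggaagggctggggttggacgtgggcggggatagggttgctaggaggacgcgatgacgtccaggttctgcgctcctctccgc
Slc25a5 (chrX:36795347-36795596, plus strand): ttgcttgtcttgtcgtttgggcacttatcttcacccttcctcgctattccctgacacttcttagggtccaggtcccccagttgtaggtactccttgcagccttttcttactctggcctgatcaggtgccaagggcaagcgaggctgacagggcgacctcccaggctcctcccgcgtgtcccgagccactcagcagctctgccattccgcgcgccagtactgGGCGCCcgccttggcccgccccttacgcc
Slc9a9 (chr9:94669642-94669891, plus strand): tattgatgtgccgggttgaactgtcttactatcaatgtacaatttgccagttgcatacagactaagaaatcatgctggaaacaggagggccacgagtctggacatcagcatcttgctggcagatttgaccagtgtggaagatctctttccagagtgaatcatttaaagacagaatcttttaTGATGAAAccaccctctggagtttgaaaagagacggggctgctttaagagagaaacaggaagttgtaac
Slc16a12 (chr19:34747329-34747578, minus strand): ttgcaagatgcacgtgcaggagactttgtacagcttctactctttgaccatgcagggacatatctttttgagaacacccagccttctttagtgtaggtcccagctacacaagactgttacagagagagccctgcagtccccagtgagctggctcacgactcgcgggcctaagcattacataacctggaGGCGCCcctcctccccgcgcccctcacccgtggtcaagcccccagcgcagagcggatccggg
Slc45a3 (chr1:131962665-131962914, plus strand): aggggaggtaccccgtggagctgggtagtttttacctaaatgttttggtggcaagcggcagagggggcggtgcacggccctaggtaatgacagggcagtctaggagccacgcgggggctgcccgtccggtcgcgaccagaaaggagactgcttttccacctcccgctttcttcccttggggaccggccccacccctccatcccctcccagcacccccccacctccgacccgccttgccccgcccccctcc

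Matches within these windows differed from gene to gene. The NRF1 core stood 212 bases before the Slc25a3 start, the SMAD element 29 bases before that of Slc25a5 and 62 bases before that of Slc16a12, and the C/EBP-ATF element 69 bases before that of Slc9a9. The upstream part of Slc45a3 held no match, and of the Slc25a3 window 92 bases lie in annotated exons and are not shown. Over the 250 upstream bases, GGCGCC occurred in 17.7% of the solute carrier windows, against 9.59% of all 32851 windows, and the median GC content was 61.2% against 52.4%. GCGCANGC occurred in 10.6% of solute carrier windows and 8.30% of all windows, and TGATGNAA in 3.55% and 3.45%. Whether GC content accounts for the motif share was not tested.

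Levels differed between classes about as much as for other genes. For 73 of the 132 (55.3%) the highest class lay under 2-fold over the lowest in both libraries, on a scale of CPM plus 5, as for 59.8% of all 10269 genes with 1000 UMIs. For 22 (16.7%) it lay 4-fold or more above in both, as for 14.2% of all genes, and the same class was highest in both libraries for 84 (63.6%), as for 59.0% of all genes. At least 50 CPM was reached in some class and library by 56 genes and in every class and library by 12, while 3 stayed under 10 CPM throughout.

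A gene was placed in a class when it was highest there by 1.5-fold over the next class in both libraries. This held for 17 of 132 solute carriers (12.9%), close to the 11.5% of all 10269 genes with 1000 UMIs. Lymphatic cells held 9 of them, against a background of 5.01% of all genes, aerocytes 6 against 3.29%, arterial cells 1 against 1.65%, and venous cells 1 against 0.828%. General capillary cells, the most numerous class, held none, where 0.701% of all genes were placed. Slc6a2, Slc45a4 and Slc2a1 are outside these counts but inside the shares over all genes, so the counts do not cover every solute carrier of a class.

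Lymphatic cells carried the clearest set. Slc9a9, a sodium/proton exchanger of recycling endosomes, stood at 260.4 CPM (interval 251 to 269.6) in aKO and 413 CPM (389 to 439) in aWT lymphatic cells, and at no more than 5.06 CPM in any blood vessel class of either library. Slc45a3, a member of the sugar transporter families known as prostein, had 141 CPM in aKO and 125 CPM in aWT lymphatic cells, against at most 1.26 CPM in the other classes. Slc16a12, which carries creatine, had 89.3 CPM in aKO and 71.5 CPM in aWT lymphatic cells and at most 0.703 CPM elsewhere. Slc10a6, a carrier of sulfated steroids, followed with 103 and 114 CPM in aKO and aWT lymphatic cells, and reached 11.1 CPM in aKO and 8.94 CPM in aWT arterial cells. In each library the lymphatic level of these genes stood above that of every other class.

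The other lymphatic genes were graded rather than restricted. Slc7a7, the light chain of a cationic amino acid exchanger, had 74.1 CPM in aKO and 65.3 CPM in aWT lymphatic cells, and between 10.9 and 23.3 CPM in the other classes. Slc38a2, the sodium-coupled neutral amino acid carrier SNAT2, was highest in lymphatic cells, at 430.3 CPM in aKO and 516 CPM in aWT, and lowest in aerocytes, at 85.2 CPM in aKO and 46.1 CPM in aWT. Slc31a2, of the copper transporters, the magnesium carrier Slc41a1 and the zinc carrier Slc30a4 completed the lymphatic group, with 111, 33.2 and 37.3 CPM in aKO and 126, 47.1 and 38.6 CPM in aWT lymphatic cells. Over the 10 class and library levels, the genes most like Slc9a9 were Slc45a3, Slc16a12 and Slc10a6, with Pearson r of 0.99, 0.99 and 0.93 on log2 of CPM plus 5. Slc45a3 and Slc16a12 had r of 1.00 with each other. The 10 points share libraries and class gates, so these values describe the likeness only.

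**Figure D1:**
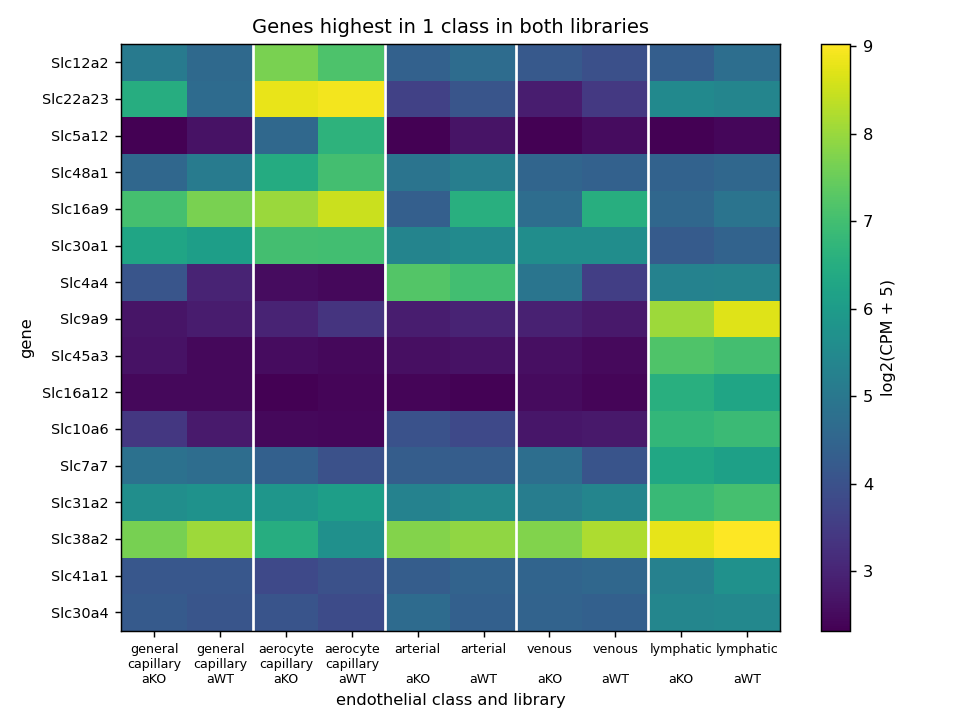
Heat map of log2 of CPM plus 5 for 16 of the 17 genes placed in a class (genes down the page, classes across, aKO left of aWT within each class; colour gives the level, 1 library per column). The lowest 9 lines are bright in the lymphatic columns of both libraries, the top 6 in the aerocyte columns, and Slc4a4 in the arterial columns.

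Aerocytes held carriers of anions, zinc and heme. Slc22a23, an orphan of the organic cation and anion family, had 441 CPM (424 to 458) in aKO and 472 CPM (459 to 485) in aWT aerocytes. Slc12a2, the sodium-potassium-chloride cotransporter NKCC1, had 201 CPM in aKO and 139 CPM in aWT aerocytes, against at most 28.7 CPM in the other classes. Slc48a1, which moves heme out of endosomes and lysosomes, had 82.0 and 125 CPM in aKO and aWT aerocytes. The zinc exporter Slc30a1 had 125 CPM in aKO and 123 CPM in aWT aerocytes, with general capillary cells next at 71.5 and 62.2 CPM. Slc16a9, a monocarboxylate carrier family member linked to creatine and carnitine, had 255 CPM in aKO and 355 CPM in aWT aerocytes, with general capillary cells again next at 128 and 199.6 CPM.

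Among the 132 genes, the artery had 1 placed carrier. Slc4a4, the sodium bicarbonate cotransporter NBCe1, stood at 146 CPM (136 to 156) in aKO and 122 CPM (113 to 132) in aWT arterial cells. Slc12a7, the potassium-chloride cotransporter KCC4, was also highest in arterial cells, at 111 and 105 CPM in aKO and aWT, but aWT venous cells reached 76.3 CPM, so that it was not placed. Slc8a1, the sodium/calcium exchanger NCX1, was split between arterial cells, with 413 CPM in aKO and 272 CPM in aWT, and aerocytes, with 205 and 262 CPM. General capillary, venous and lymphatic cells had 30.1 to 45.8 CPM of Slc8a1.

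The comparison of aKO with aWT asked which carriers differed within the classes. With the 5 classes weighted equally, 7 of 132 genes lay higher in aKO by 1.5-fold or more, where 6.32% of all genes did, and 7 lay lower by as much, where 4.34% did. Both directions together came to 10.6% of the solute carriers and 10.7% of all genes, so that the solute carriers as a set moved no more often than other genes. The median log2 ratio of aKO over aWT (CPM plus 5) was 0.05 over the solute carriers and 0.05 over all genes. Adding 5 CPM understates the ratio of genes at a few CPM. Higher in aKO were Slc1a5, Slc25a3, Slc39a14, Slc25a5, Slc16a13, Slc44a2 and Slc9a3r2, and among the lower were Slc6a6, Slc5a12, Slc25a33, Slc26a11, Slc16a9 and Slc9a9. The single ratios of Slc16a13, Slc25a33 and Slc26a11 were not run under the alternative settings.

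**Figure D2:**
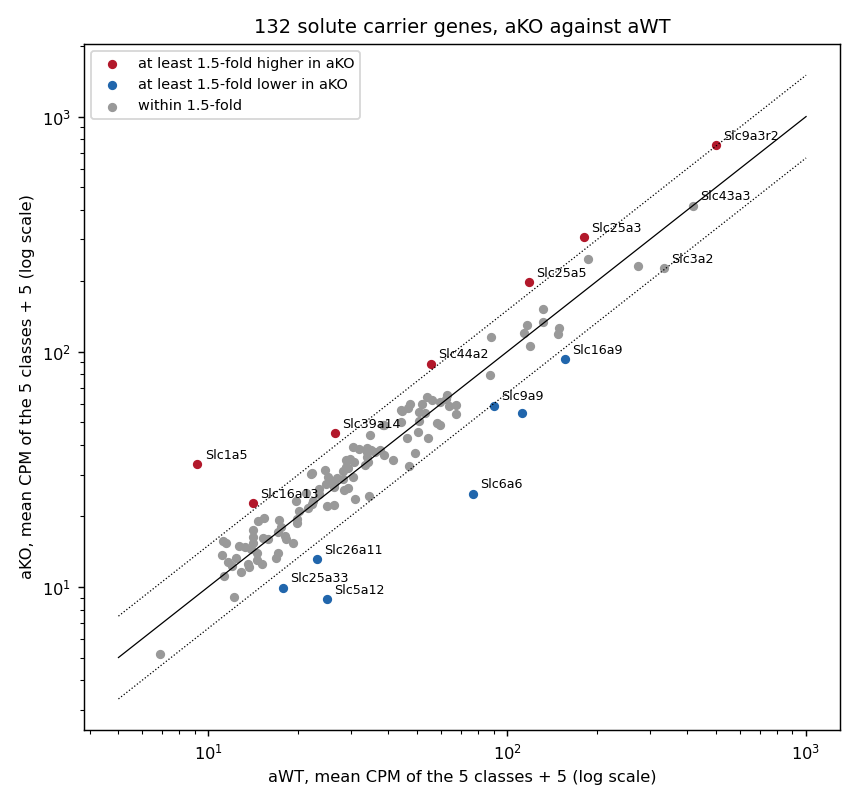
Mean CPM of the 5 classes plus 5 in aKO (vertical, log scale) against aWT (horizontal, log scale), 1 point per solute carrier gene, with the line of equality and dotted lines at 1.5-fold. Most of the 132 points lie between the dotted lines; Slc1a5 lies farthest above them and Slc6a6 and Slc5a12 farthest below.

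By class, the share past 1.5-fold followed the background. In general capillary cells 12 genes were higher and 8 lower, 20 of 132, where 9.05% of all genes were higher and 5.24% lower (14.3% in all). In aerocytes 6 were higher and 6 lower, against 5.01% and 3.82% of all genes (8.82% in all). Arterial cells had 12 higher and 11 lower, against 9.28% and 10.3% (19.6% in all), venous cells 15 higher and 9 lower, against 12.5% and 8.03% (20.6% in all), and lymphatic cells 7 higher and 4 lower, against 5.07% each way (10.1% in all). For 80 of the 132 genes the ratio lay within 1.5-fold in all 5 classes, which held for 63.1% of all genes. In sign alone, 21 genes (15.9%) were higher in aKO in all 5 classes, where 23.2% of all genes were, and 22 (16.7%) were lower in all 5, where 15.3% were. Slc1a5 and Slc25a5 reached 1.5-fold higher in all 5 classes, as 0.769% of all genes did. No gene was 1.5-fold lower in all 5, where 0.935% of all genes were.

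Among the 16 genes of the amino acid families, 1 was higher and none lower, with a median log2 ratio of 0.01. The higher one was Slc1a5, the sodium-dependent glutamine and neutral amino acid carrier ASCT2 (ENSMUSG00000001918, chromosome 7, 16781340 to 16798274). In general capillary cells it stood at 32.2 CPM (29.9 to 34.6) in aKO and 1.53 CPM (1.14 to 2.01) in aWT, and in aerocytes at 22.0 CPM (18.4 to 26.0) in aKO and 1.10 CPM (0.571 to 1.93) in aWT. Venous cells had 57.0 CPM in aKO and 10.5 CPM in aWT, arterial cells 23.1 and 6.66 CPM, and lymphatic cells 6.86 and 1.16 CPM. The aKO level lay above the aWT level in each class, with non-overlapping counting intervals, and the log2 ratio was 1.85 with equal weights and between 0.95 in lymphatic and 2.51 in general capillary cells. The lymphatic ratio ran from 0.34 to 1.86 over the alternatives and dropped below 1.5-fold with a pseudocount of 20 CPM. The aWT lymphatic level of 1.16 CPM rests on few UMIs. In alveolar type 2 cells, the surfactant-making epithelial cells of the alveolus, carried along in small number (17 aKO and 99 aWT cells), Slc1a5 stood at 85.9 CPM (52.5 to 133) in aKO and 72.1 CPM (59.3 to 86.9) in aWT, intervals that overlap.

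Slc3a2, the 4F2 heavy chain that partners amino acid light chains, differed by class. It stood at 160.2 CPM (155 to 165) in aKO and 421 CPM (414 to 428) in aWT general capillary cells, and at 212 CPM in aKO and 465 CPM in aWT venous cells. Lymphatic cells had 237 CPM in aKO and 177 CPM in aWT, and aerocytes 214 and 220.3 CPM. Its log2 ratios ran over -1.37 (general capillary), -1.12 (venous), -0.36 (arterial), -0.04 (aerocyte) and 0.41 (lymphatic), and whether the classes differ was not tested. Slc38a2 was higher in aKO in aerocytes alone, with a log2 ratio of 0.82 there and -0.45 to -0.14 in the other classes. Slc43a3, a purine nucleobase carrier with the most UMIs of the amino acid families, had a ratio of 0.65 in aerocytes (657 CPM in aKO and 418 CPM in aWT; 0.58, under 1.5-fold, with edgeR's TMM scaling factors) and -0.76 in venous cells (369 and 627 CPM). With the classes weighted equally these opposite values left 412 CPM in each library.

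Slc6a6, the taurine carrier (ENSMUSG00000030096, chromosome 6, 91684053 to 91759066), had the lowest ratio of the 132, at -1.62 with equal weights. General capillary cells had 47.6 CPM (44.8 to 50.5) in aKO and 167 CPM (163 to 172) in aWT, and arterial cells 12.5 CPM (9.81 to 15.7) in aKO and 132 CPM (123 to 142) in aWT. Lymphatic cells had 5.21 CPM in aKO and 18.9 CPM in aWT. Venous cells stood close, at 30.3 CPM (27.0 to 33.9) in aKO and 34.0 CPM (30.0 to 38.2) in aWT, and the intervals in aerocytes overlapped as well, at 3.83 CPM (2.43 to 5.74) and 5.89 CPM (4.54 to 7.52). The log2 ratios were thus -1.71 in general capillary, -2.97 in arterial and -1.23 in lymphatic cells, but -0.14 in venous cells and -0.30 in aerocytes. The lymphatic ratio was -0.55, under 1.5-fold, as a mean over cells. The general capillary marker share, given above, was also lower in aKO arterial and general capillary cells, and its part in the Slc6a6 ratio was not tested. Of the other genes of the Slc6 family, the creatine carrier Slc6a8 had a ratio of -0.06.

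Slc5a12 and the monocarboxylate carriers followed. Slc5a12, a sodium-coupled lactate carrier, was found mainly in aerocytes, at 19.1 CPM (15.8 to 23.0) in aKO and 95.9 CPM (90.2 to 102) in aWT, with a log2 ratio of -2.06. In the other 4 classes Slc5a12 had 0 UMIs in aKO, with upper interval bounds of 0.160 CPM for general capillary cells, 0.623 for the artery, 0.305 for lymphatic cells and 0.370 for the vein, and 0.386 to 1.40 CPM in aWT. Aerocyte marker genes took 2.11% of UMIs in aKO and 2.05% in aWT aerocytes, a share that the class gate itself bounds from below, and the part of class make-up in the Slc5a12 ratio was not tested. The other 6 of the 7 sugar and sodium-coupled family genes lay within 1.5-fold with equal weights. Among them Slc2a13, the proton myo-inositol symporter, had 15.9 CPM in aKO and 39.4 CPM in aWT arterial cells (log2 ratio -1.09). Slc2a13 was highest in general capillary cells, at 51.3 CPM in aKO and 74.2 CPM in aWT. The general capillary marker share, given above, was lower in aKO arterial cells, and its part in the Slc2a13 arterial ratio was not tested.

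Slc16a9 was lowest in ratio in arterial and venous cells, with 15.5 CPM in aKO and 88.5 CPM in aWT arterial cells (log2 ratio -2.19) and 21.3 and 87.2 CPM in venous cells (-1.81). Its ratio was -0.47 in aerocytes, where it is highest, and -0.62 in general capillary cells, a value past 1.5-fold that was lost with a pseudocount of 20 CPM, with the mean over cells and with thinning. General capillary markers also took less of the UMIs in these classes, 0.0796% in aKO and 0.387% in aWT arterial cells and 0.326% in aKO and 0.521% in aWT venous cells, and their part in the Slc16a9 ratios was not tested. Slc16a13, the monocarboxylate carrier MCT13, was higher, with 37.7 CPM in aKO and 11.2 CPM in aWT general capillary cells and 14.7 and 3.87 CPM in venous cells.

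**Figure D3:**
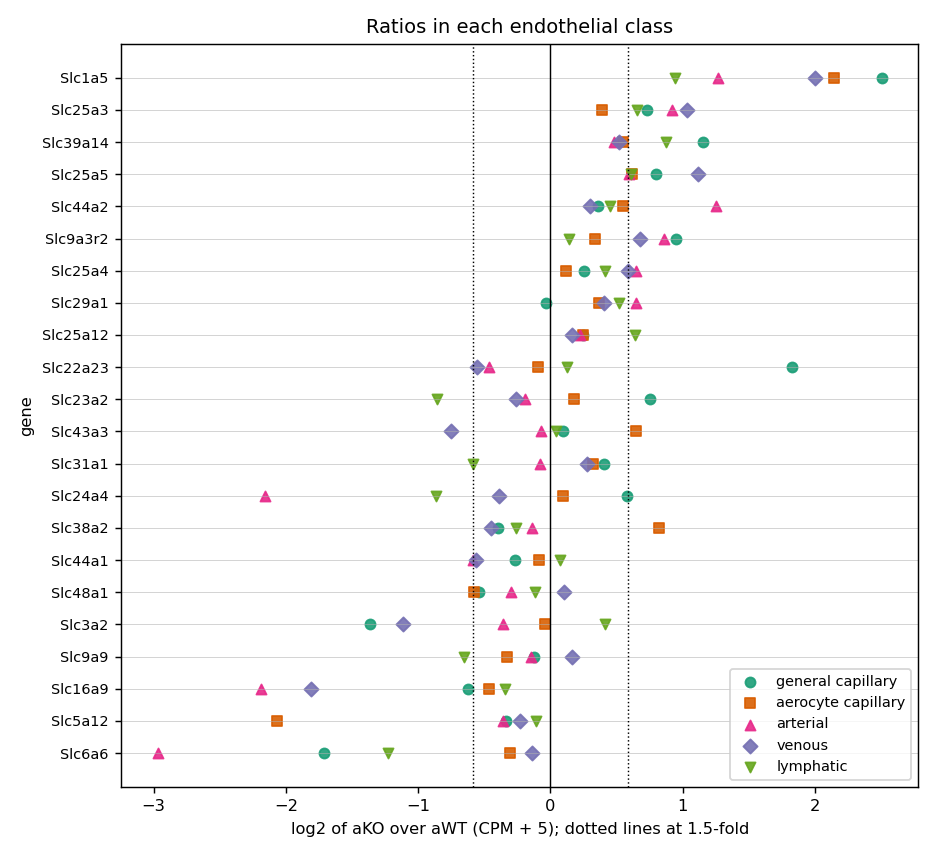
Log2 ratios of aKO over aWT (CPM plus 5) in each of the 5 classes, 1 marker per class, for the genes with the highest and lowest ratios (dotted lines at 1.5-fold, 1 library per group). The 5 markers of Slc1a5 all lie right of the upper line, while Slc23a2 and Slc43a3 have markers past both dotted lines. Slc3a2 and Slc24a4 have markers past the lower line and others that are higher in aKO but stay short of the upper line.

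Mitochondrial carriers formed the largest family group, with 32 genes, of which 2 were higher, 1 lower and 29 within 1.5-fold, and a median of 0.06. Slc25a3, the phosphate carrier that feeds ATP synthase, stood at 392 CPM (380 to 405) in aKO and 189 CPM (180 to 199) in aWT venous cells, at 352 CPM in aKO and 183 CPM in aWT arterial cells, and at 234 and 139 CPM in general capillary cells. Lymphatic cells had 317 and 199.8 CPM and aerocytes 218 and 166 CPM. Slc25a5, the ADP/ATP carrier ANT2, had 223 CPM (214 to 233) in aKO and 101 CPM (93.8 to 108) in aWT venous cells and 175 and 98.5 CPM in general capillary cells. Both were higher in aKO in each class, with log2 ratios of 0.39 to 1.03 for Slc25a3 and 0.60 to 1.11 for Slc25a5. For Slc25a5 the aerocyte, arterial and lymphatic ratios lay so close to 1.5-fold that 1 or more alternatives ended each of them.

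The related ADP/ATP carrier ANT1, Slc25a4, had a ratio of 0.41, with 264 CPM in aKO and 167 CPM in aWT arterial cells and 167 and 139 CPM in general capillary cells. Near-identical copies of ADP/ATP carrier genes exist, and how the counting split such reads is not given in the sources used here, so these levels carry that uncertainty. Slc25a12, the aspartate/glutamate carrier aralar, had a ratio of 0.64 in lymphatic cells and 0.17 to 0.25 in the other classes. The lymphatic value fell within 1.5-fold with a pseudocount of 20 CPM, the mean over cells, thinning and doublets kept, the lowest being 0.38. Slc25a33, a pyrimidine nucleotide carrier, was the lower one, at 9.49 CPM (7.18 to 12.3) in aKO and 33.8 CPM (30.4 to 37.4) in aWT aerocytes, a log2 ratio of -1.42. The contrast between Slc25a3 and Slc25a33 shows that the family did not move one way.

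Metal carriers counted 19 genes, with 1 higher and 18 within 1.5-fold, and a median of 0.03. The higher one, Slc39a14, which takes up zinc, iron and manganese, stood at 56.1 CPM (53.0 to 59.2) in aKO and 22.4 CPM (20.9 to 24.1) in aWT general capillary cells, and at 55.9 CPM in aKO and 28.2 CPM in aWT lymphatic cells. In the other classes its log2 ratio was 0.48 to 0.55, under 1.5-fold, and the equal-weights value of 0.76 dropped to 0.53 with a pseudocount of 20 CPM. Slc31a1, the copper uptake carrier, had a ratio of -0.58 in lymphatic cells (40.3 CPM in aKO and 63.0 CPM in aWT) and 0.41 in general capillary cells.

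The ion, pH and chloride families held 21 genes, with 1 higher, 2 lower and a median of 0.11. Slc9a3r2, the scaffold NHERF2 and the gene with the most UMIs of the set, stood at 940.1 CPM (928 to 953) in aKO and 484 CPM (476 to 491) in aWT general capillary cells, at 1236 CPM in aKO and 977 CPM in aWT aerocytes, and at 263 and 238 CPM in lymphatic cells. Arterial cells had 753 CPM in aKO and 414 CPM in aWT (ratio 0.86) and venous cells 565 and 352 CPM (0.68), and the general capillary, arterial and venous values stayed past 1.5-fold under every alternative run. Its equal-weights ratio of 0.60 dropped below 1.5-fold with TMM factors, centring, thinning, all cells summed, or the arterial class left out. Slc9a9 was lower in aKO in lymphatic cells, with a ratio of -0.66 (-0.53, within 1.5-fold, as a mean over cells), and stayed at or under 5.06 CPM in the other classes. The equal-weights ratio of Slc9a9, -0.61, fell within 1.5-fold with a pseudocount of 20 CPM, TMM factors, the mean over cells, doublets kept, or general capillary cells alone. When cells of the 5 classes were summed instead, Slc9a9 turned to 1.29. Lymphatic cells were 15.3% of aKO and 3.33% of aWT cells. Slc26a11, a sulfate and anion carrier, had ratios of -1.25 to -0.41, with 7.63 CPM in aKO and 25.0 CPM in aWT venous cells and 9.41 and 20.2 CPM in general capillary cells.

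Carriers of calcium and bicarbonate differed in some classes only. Slc24a4, a potassium-dependent sodium/calcium exchanger, stood at 21.6 CPM (18.0 to 25.7) in aKO and 114 CPM (105 to 123) in aWT arterial cells, a log2 ratio of -2.16, but at 244 CPM in aKO and 162 CPM in aWT general capillary cells, a ratio of 0.58. Aerocytes had 29.5 CPM in aKO and 27.2 CPM in aWT of Slc24a4. Lymphatic cells had 3.88 CPM in aKO and 11.2 CPM in aWT, a ratio of -0.87 that fell within 1.5-fold with a pseudocount of 20 CPM, with thinning and with doublets kept. Slc24a4 was highest in general capillary cells, whose marker share in arterial cells also differed between the libraries, so the arterial value cannot be told apart from the make-up of the class. Slc4a4 was higher in aKO in general capillary and venous cells, with 11.9 CPM in aKO and 2.91 CPM in aWT general capillary cells and 25.5 and 6.74 CPM in venous cells, while its arterial ratio was 0.24 and lymphatic cells had 33.9 CPM in aKO and 35.2 CPM in aWT. The general capillary ratio of 1.10 was 0.48 with a pseudocount of 20 CPM. Slc8a1 reached 1.5-fold in arterial cells with a ratio of 0.59, which was lost with stricter class gates, stricter cell filters and a pseudocount of 20 CPM.

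Slc22a23 was likewise higher in aKO in general capillary cells. It stood at 85.5 CPM (81.7 to 89.3) in aKO and 20.5 CPM (19.0 to 22.1) in aWT general capillary cells, a log2 ratio of 1.82, against -0.10 in aerocytes. Arterial cells had 7.26 CPM in aKO and 11.9 CPM in aWT, venous cells 2.31 and 5.74 CPM, and lymphatic cells 40.2 and 36.3 CPM. Aerocyte markers took 0.211% of UMIs in aKO and 0.116% in aWT general capillary cells, and Car4, an aerocyte-rich carbonic anhydrase, stood there at 515 and 112 CPM. The part of these markers in the Slc22a23 value was not tested. The other 4 organic ion, peptide and drug carriers lay within 1.5-fold in equal weights.

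Among the remaining groups, the 6 choline, lipid and fatty acid genes held 1 higher, Slc44a2, a choline-like transporter with 169 CPM (159 to 180) in aKO and 68.2 CPM (61.6 to 75.3) in aWT arterial cells and a log2 ratio of 1.25. Its ratios in the other classes were 0.30 to 0.55, and the equal-weights value no longer reached 1.5-fold without the arterial class, with a pseudocount of 20 CPM, or with all cells summed. Its relative Slc44a1 had ratios of -0.58 to 0.07. Slc23a2, the vitamin C carrier SVCT2, had 263 CPM (256 to 269.6) in aKO and 154 CPM (150.1 to 159) in aWT general capillary cells, and 81.2 CPM (76.2 to 86.5) in aKO and 151 CPM (137 to 167) in aWT lymphatic cells. Those log2 ratios of 0.75 and -0.86 cancelled to 0.03 in equal weights. Slc29a1, the equilibrative nucleoside carrier of adenosine, had a ratio of 0.65 in arterial cells, with 90.1 CPM in aKO and 55.8 CPM in aWT, which a pseudocount of 20 CPM or stricter class gates ended.

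Genes within 1.5-fold in equal weights included Slc50a1, a sugar carrier of the SWEET type, with a ratio of 0.16, and Slc20a1 and Slc20a2, phosphate carriers, with 0.27 and 0.15. Slc20a1 passed 1.5-fold in venous cells, at 29.4 CPM in aKO and 17.7 CPM in aWT (ratio 0.60), a value that 6 alternatives ended, the lowest being 0.39. In the nucleotide sugar, Golgi, lysosome and vesicle group all 10 genes lay within 1.5-fold, with ratios of -0.41 to 0.35. The phosphate and sulfate, vitamin and nucleoside groups, of 3, 3 and 2 genes, held none past 1.5-fold in equal weights. Ratios near 0 were also found for Slc10a7 at -0.18, with a class mean of 100.3 CPM in aKO and 115 CPM in aWT, for the UDP-N-acetylglucosamine carrier Slc35a3 at 0.00 (45.7 and 45.8 CPM), for Slc49a4 at 0.03 (33.1 and 32.4 CPM) and for Slc22a15 at 0.06 (22.4 and 21.2 CPM). The nucleoside carrier Slc29a3 was low, at 8.92 CPM in aKO and 12.1 CPM in aWT. Slc46a3 had 19.3 CPM in aKO and 10.7 CPM in aWT general capillary cells, a ratio of 0.62 that was lost with a pseudocount of 20 CPM, TMM factors, centring and thinning (lowest 0.35), and lay within 1.5-fold in the other classes.

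**Figure D4:**
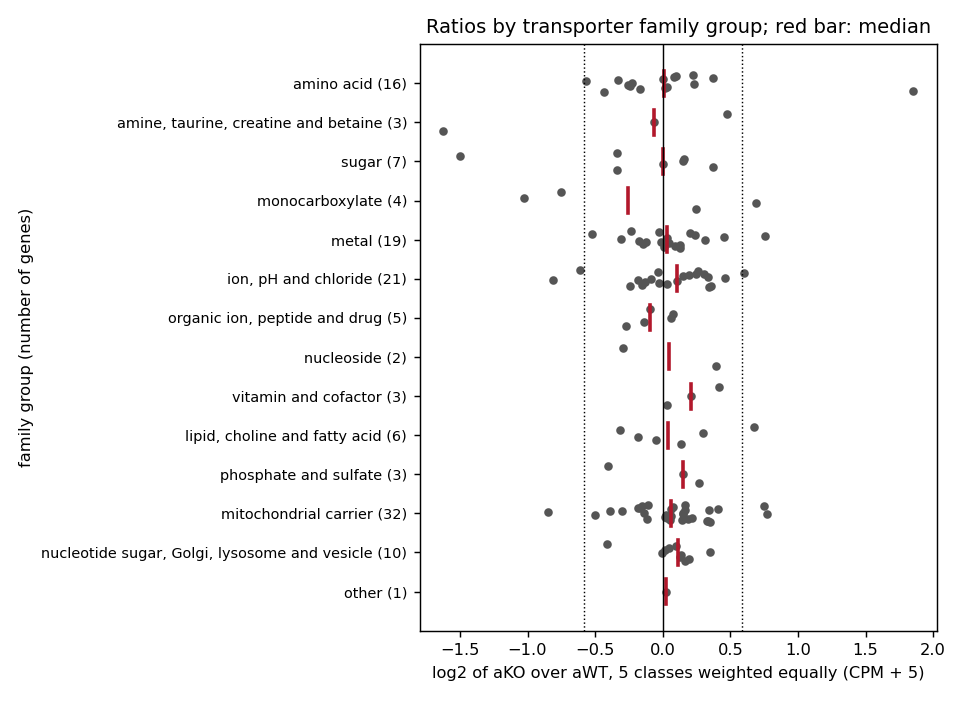
Log2 ratios of aKO over aWT (CPM plus 5, 5 classes weighted equally) by transporter family group, 1 point per gene, with the group's median as a red bar and dotted lines at 1.5-fold. The medians of the 4 groups of over 10 genes lie between 0.01 and 0.11, and points past the lines occur in several groups. Of the 4 monocarboxylate genes, 1 is higher and 2 are lower by 1.5-fold. The mitochondrial carriers have 2 higher and 1 lower, and the ion, pH and chloride genes 1 higher and 2 lower.

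Genes that work beside solute carriers were taken as a list of 37, of which 29 held 1000 UMIs. With equal weights 3 were at least 1.5-fold higher and 2 lower, where 6.32% and 4.34% of all genes were, with a median of 0.10 against 0.05 over all genes. Slco2a1, the prostaglandin carrier of another gene family, stood at 798 CPM in aKO and 1224 CPM in aWT general capillary cells, and its log2 ratio was -0.92. Higher were Ldha, lactate dehydrogenase, with a ratio of 0.74, Slco3a1, an organic anion carrier, with 0.65, and Mfsd10 with 0.59. Emb, the chaperone embigin, was the second lower gene, at 0.457 and 5.58 mean CPM in aKO and aWT, while basigin (Bsg) had a ratio of 0.25 and 268 CPM in aKO and 202 CPM in aWT general capillary cells. In arterial cells 10 of the 29 were lower and 3 higher, where 10.3% and 9.28% of all genes were, beside the lower general capillary marker share of aKO arterial cells, whose part was not tested. Car2, a carbonic anhydrase, had the lowest ratio there, at 8.95 CPM in aKO and 80.1 CPM in aWT.

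A second list held 13 genes of the amino acid response, the programme under the factor ATF4 that also induces some amino acid carriers. Of the 9 with 1000 UMIs, 2 were higher and none lower in equal weights, where 6.32% and 4.34% of all genes were, with a median of 0.28 against 0.05 over all genes. Asns, asparagine synthetase, stood at 12.3 CPM in aKO and 5.73 CPM in aWT general capillary cells and had an equal-weights ratio of 0.60, and Nupr1, a stress-induced chromatin protein, had 0.83. Atf4 itself had a ratio of -0.01, with 133 CPM in aKO and 116 CPM in aWT general capillary cells.

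Position and length were set beside the ratios. The genes spanned a median of 30.1 kb, and across the 132 the equal-weights ratio had a Spearman rho of -0.33 with span, with a median ratio of 0.02 in the longer and 0.13 in the shorter genes when split at the median span. These points share libraries and depth, and the value is a description. Malat1, a nuclear RNA, stood at 29116 CPM in aKO and 40750.4 CPM in aWT general capillary cells, and its part in the relation to span was not tested. On the X chromosome lay 8 genes, with a median ratio of 0.09, among them Slc25a5. Xist, which is expressed from the inactive X, stood at 737 CPM in aKO and 3.87 CPM in aWT general capillary cells, so that the sex of the animals and the group cannot be told apart for any gene.

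Slc34a2, the phosphate carrier of alveolar type 2 cells, owed its place in the set to cells outside the endothelium. It stood at 4133 CPM (3876 to 4402) in aKO and 3743 CPM (3647 to 3842) in aWT type 2 cells, and at 0.0826 to 0.347 CPM in aKO and 0.386 to 2.63 CPM in aWT endothelial classes. The surfactant gene Sftpc, which endothelial cells do not make, stood at 6.59 CPM in aKO and 162 CPM in aWT general capillary cells. The endothelial Slc34a2 counts were thus lower in aKO beside lower counts of a type 2 gene, and they are not read as endothelial expression.

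In the endothelial cells of no class, several of these genes also differed, but the 2 sets of cells were unlike. They were 1495 aKO cells with a median of 5831 UMIs and 267 aWT cells with a median of 1904. Pan-endothelial markers took 1.36% of UMIs in the unclassed aKO and 0.728% in the unclassed aWT cells. Slc1a5 had 31.3 CPM (28.0 to 34.9) in the unclassed aKO cells and 9.19 CPM (3.70 to 18.9) in the unclassed aWT cells, and Slc9a3r2 had 1044 CPM and 306 CPM. Slc22a23 had 38.2 CPM (34.6 to 42.1) in unclassed aKO and 235 CPM (202 to 272) in unclassed aWT cells, and Slc16a9 had 19.6 and 105 CPM. Aerocyte markers took 0.128% of UMIs in unclassed aKO and 0.217% in unclassed aWT cells. The part of cell make-up and depth in these differences was not tested.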

How the data were processed

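The authors deposited raw UMI counts per gene and barcode for 2 libraries, not normalized; Cell Ranger 7.2.0 and mm10 are named in the submitters' processing notes. Whether intronic reads were counted is not given in the sources used here. From the deposited counts, cells were kept with 500 genes or more and a mitochondrial share up to 15%. Scrublet (scanpy 1.11.5) scores above 0.2 were removed as doublets, 406 aKO (3.68%) and 700 aWT (4.38%) barcodes, because the automatic threshold called almost none in aWT. Cells were classed by marker UMI shares, with pan-endothelial markers at least 0.2% and other lineages under 0.5%. Gates were 0.6% for lymphatic or aerocyte, 0.4% for arterial or venous and 0.2% for general capillary cells. An arterial or venous share under 0.5 of the general capillary share did not count. General capillary cells passed no other gate. The other shares were divided by their gate, and the leading class had to stand 1.5-fold over the second. Cells that missed this margin, and aerocytes with 0.4% or more general capillary markers, were set aside as mixed (179 aKO and 313 aWT). The way markers were combined was set after the data had been seen. UMIs were summed per class and library, scaled to CPM, and compared as log2 of CPM plus 5, with a size rule of 1.5-fold and all 10269 genes with 1000 UMIs as background; no test is possible with 1 library per group. Simulated counts with known folds were used to check the fold rule.

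The genes and lists were chosen with earlier results of these data known. Named genes are the 12 with the most endothelial CPM, up to 5 placed per class, the 6 highest and lowest ratios among those with 50 CPM, 3 each way per class, 2 per family group, the nearest to the UMI threshold, and the most alike. Slc16a13, Slc25a33, Slc26a11, Slc12a7, Slc41a1, Slc30a4 and Slc34a2 were named after their values were seen. Of the genes counted, 2 are not reported by name here. Spans came from GENCODE M21 and upstream windows from RefSeq. Alternatives were pseudocounts of 1 and 20 CPM, edgeR 4.0.16 TMM factors, centring, the mean over cells, thinning to 2000 UMIs, doublets kept, other cell filters, class gates, UMI thresholds and folds, all cells summed and general capillary cells alone; leaving out the arterial class or barcodes found in both libraries was added after the data had been seen. Python 3.11.15, numpy 2.4.6, scipy 1.17.1, pandas 2.3.3 and R 4.3.3 were used.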

Additional observations from a re-analysis of the deposited data

Results flagged for a closer look

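Slc43a3, the purine nucleobase carrier, and Slc23a2, the vitamin C carrier, lay past 1.5-fold in opposite directions in different endothelial classes. Slc43a3 had a log2 ratio of aKO over aWT of 0.65 in aerocytes and -0.76 in venous cells; with TMM factors the aerocyte value was 0.58, under 1.5-fold. Slc23a2 had 0.75 in general capillary cells and -0.86 in lymphatic cells. With 1 library per group, whether the ratios differ between the classes was not tested.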

How the results depend on the processing

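No paired analysis was possible because each group has 1 library. Of the 65 ratios of named genes past 1.5-fold, 41 stayed past it under every alternative run and 1 turned sign: Slc9a9, at 1.29 when all cells of the 5 classes were summed. The genes named after their values were seen, among them Slc16a13, Slc25a33 and Slc26a11, are not among these ratios. Their single ratios were not run under the alternatives, so nothing is known of how far they hold. Counts moved by over 1.5 times with the pseudocount, thinning, the UMI threshold, the fold and the cells summed. The 7 genes higher in aKO became 4 with a pseudocount of 20 CPM, 1 at 2-fold, 13 with all cells summed and 12 in general capillary cells alone; the 7 lower became 4, 3 at 2-fold and 4 at 3000 UMIs. In general capillary cells 20 became 12 with 20 CPM and 7 at 2-fold, in arterial cells 23 became 14 and 8, and in venous cells 24 became 10 and 9. In aerocytes 12 became 24 with 1 CPM, 6 with 20 CPM, 22 after thinning, 6 at 3000 UMIs and 3 at 2-fold. In lymphatic cells 11 became 21 with 1 CPM, 5 with 20 CPM, 23 after thinning, 17 at 300 UMIs and 1 at 2-fold. The 17 placed genes became 26 at 300 UMIs, 11 at 3000 UMIs and 11 at 2-fold. The 8 genes past 1.5-fold in the 4 family groups of over 10 genes became 4 with 20 CPM, 5 at 3000 UMIs, 1 at 2-fold and 13 with all cells summed. The causes were not tested; thinning left out 1065 aKO and 2042 aWT cells. The other 92 counts stayed within 1.5 times. Genes under 10 CPM rest on few UMIs in small classes such as aWT lymphatic cells. In aKO general capillary cells, the 9.41 CPM of Slc26a11 stood for 217 UMIs. With 1 library per group, animal, sex and preparation are inseparable from aKO.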
